A study of Rattus norvegicus with 9 samples.

Results

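Adenosine in the spinal cord is made, sensed and removed by a small group of proteins, and the 10 genes described here encode 4 receptors (Adora1, Adora2a, Adora2b and Adora3), 3 ecto-enzymes on the path from ATP to adenosine (Entpd1, Entpd2 and Nt5e), 2 enzymes that remove adenosine (Adk and Ada) and the carrier Slc29a1. They were taken by gene name from a table of 34890 loci, and each of the 10 names matched 1 Ensembl locus. The samples were RNA from the ipsilateral L3-L6 spinal cord of male Sprague Dawley rats labelled wild type, 21 days into the experiment, with 3 samples in each of 3 groups. JA rats had a sham operation, in which the nerve was neither ligated nor cut, and were given saline. SNI rats had the spared nerve injury, in which the tibial and common peroneal nerves were ligated and cut while the sural nerve was left, and were given saline. PLM rats had the same injury and were given paeoniflorin (20.65 mg/ml) together with liquiritin by gastric infusion, given as 3.98 mg/ml for the whole group in the study's methods. The labels of replicates 1, 2 and 3 read 3.98, 3.99 and 3.100 mg/ml, numbers that run on like a filled-down series, so they are not taken here as different doses. No group of uninjured rats given the drugs was analysed here, so the PLM group can be set against injured or sham-operated rats on saline only. The age of the rats, and whether a sample was 1 animal or a pool, are not given in the sources used here, so the p-values measure the spread between these samples.

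Adenosine is a local signal that is formed outside cells when ATP is broken down and inside cells from AMP. The receptors encoded by Adora1 and Adora3 couple to inhibitory G proteins and lower cAMP, and those encoded by Adora2a and Adora2b couple to stimulatory G proteins and raise it. In the spinal cord, activation of the Adora1 receptor is known to dampen pain transmission, and adenosine kinase (Adk), which in the adult nervous system is found mainly in astrocytes, keeps the adenosine level low. Adora2b is known as the receptor with the lowest affinity for adenosine.

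Values are TPM, in which a transcript's reads are divided by its length and scaled to the same total in every sample, so a level may be compared between genes. Fold changes are differences of log2(TPM + 1), tested with limma on loci averaging 1 TPM or more in the 6 samples of the pair. A locus was called at a Benjamini-Hochberg adjusted p under 0.05 over all loci tested. Since TPM is a share, each comparison was also fitted after every sample was centred on its own median, and the median of all loci moved from -0.21 to 0.04 in PLM versus SNI, from 0.12 to -0.01 in SNI versus JA and from -0.10 to 0.03 in PLM versus JA. Transcripts of 13 mitochondrial protein genes took 25.3% to 32.8% of all TPM in JA, 23.7% to 26.1% in SNI and 31.3% to 32.8% in PLM. The defining markers of neurons, astrocytes, oligodendrocytes and microglia were all present. The summed TPM of 15 astrocyte markers ran from 2096.9 to 4294.3 in JA, from 3734.2 to 4169.2 in SNI and from 1710.3 to 2121.9 in PLM, and its lowest JA value, in replicate 3, lay inside the PLM range. Values without JA replicate 3 are therefore given beside the comparisons with JA.

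Adk and Adora1 were the most abundant of the 10 genes, with means over the 9 samples of 60.2 and 59.2 TPM. Their ranges overlapped, and Adk was the higher of the pair in 5 of 9 samples. All 9 samples had more Adora1 than Entpd2 (mean 7.30 TPM), and these ranges did not overlap. Below that step followed Nt5e (5.97), Entpd1 (5.85), Slc29a1 (4.07), Adora2b (3.90), Adora2a (3.69), Ada (1.42) and Adora3 (0.939 TPM), and the range of each gene overlapped that of its neighbour in this order. Adora1 thus made up most of the receptor mRNA, with 87.5% ± 1.23 of the summed TPM of the 4 receptors in JA, 85.9% ± 0.891 in SNI and, in PLM, 89.4% ± 0.971 (mean ± SD, n = 3).

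**Figure D1:**
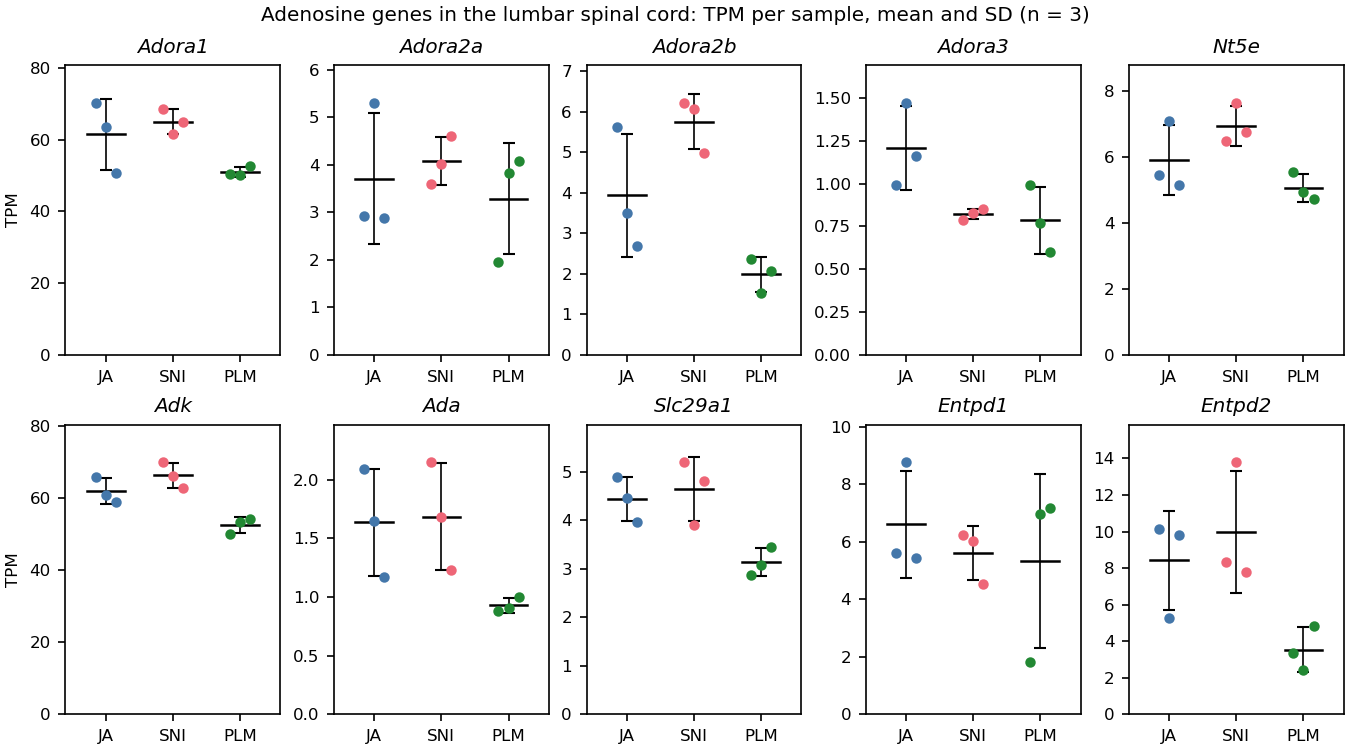
TPM of the 10 adenosine genes in each sample (points, 3 per group), with the group mean (line) and SD (error bar), each panel on its own axis from 0. Adora2b lay at 4.98 to 6.22 TPM in SNI and at 1.52 to 2.36 TPM in PLM, Adk and Adora1 were lower in every PLM sample than in every SNI sample, and PLM replicate 1 stood apart for Entpd1 at 1.83 TPM.

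The comparison of PLM with SNI asks what differed in injured rats given the 2 compounds. On the log2 scale Adora2b and Entpd2 fell most in it, to mean levels of 1.99 and 3.53 TPM from 5.76 and 9.96 TPM, and Adora1, Adk and Nt5e fell by smaller log2 differences. In all, 5 of the 9 members tested were called lower and 0 higher, where 13.6% of all 15474 loci were called lower and 0.246% higher. As deposited, 9 of 9 members and 85.0% of loci had a log2 fold change below 0, and the median was -0.39 over the members and -0.21 over all loci. After centring, 0 of 9 members were called by limma, 2 of 9 (Adora2b and Entpd2) had an unadjusted p under 0.05, both lower. Of all loci, 0.685% were called lower and 0.129% higher, and 6.89% lower and 10% higher had an unadjusted p under 0.05. In 7 of 9 members every PLM sample lay below every SNI sample, as in 41.9% of loci, and after centring this held for 3 of 9 (Adora2b, Entpd2 and Adk), as in 9.73% of loci. The 9 tested leave out Adora3, whose mean was under 1 TPM, and they include Ada, whose mean reached 1 TPM only through SNI. Without Ada, 6 of 8 members did not overlap as deposited and the median log2 fold change was -0.37, and after centring these were 3 of 8 and -0.12.

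Among the receptors, Adora2b (ENSRNOG00000002922) was measured at 5.63, 3.51 and 2.68 TPM in JA, at 6.22, 6.08 and 4.98 TPM in SNI and at 2.36, 1.52 and 2.08 TPM in PLM. The PLM samples were the lowest of the 9, with no overlap with either other group, while the JA samples spread from near the PLM level to the SNI level. JA averaged 3.94 ± 1.52 TPM, SNI 5.76 ± 0.679 TPM and PLM 1.99 ± 0.428 TPM (SD, n = 3). In PLM versus SNI, Adora2b fell by 1.18 on the log2 scale (SE 0.15, limma adjusted p = 0.0103). After centring, its log2 fold change was -0.94 (SE 0.15, limma unadjusted p = 0.000663, adjusted p = 0.0607), short of the threshold. Without SNI replicate 1 the limma adjusted p was 0.0501, and without any other single sample it was 0.0244 to 0.0376. Adora2b was the member still called when the mitochondrial genes were left out of the TPM (limma adjusted p = 0.0299) and when all 9 samples shared 1 fit (0.0409), and it was not called after quantile normalization (0.0522). By the thresholds that the study's methods give, an unadjusted p under 0.05 with an absolute log2 fold change above 1, Adora2b and Entpd2 passed as deposited and Entpd2 alone after centring, where 1.42% and 0.659% of loci passed as lower.

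The 300 bases around the annotated start of Adora2b and of Entpd2, the 2 genes with the largest fold changes, are given here (RefSeq, GRCr8, 250 bases before the start and 50 after it, 5′ to 3′ on the gene's strand). Capitals mark the GC box, GGGCGG on either strand.
Adora2b: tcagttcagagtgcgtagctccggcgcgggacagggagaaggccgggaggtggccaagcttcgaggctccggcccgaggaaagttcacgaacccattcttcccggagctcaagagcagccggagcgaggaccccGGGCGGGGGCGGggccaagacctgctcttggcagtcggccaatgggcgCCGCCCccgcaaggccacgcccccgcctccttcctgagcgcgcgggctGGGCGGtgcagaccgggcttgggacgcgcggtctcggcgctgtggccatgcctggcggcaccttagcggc
Entpd2: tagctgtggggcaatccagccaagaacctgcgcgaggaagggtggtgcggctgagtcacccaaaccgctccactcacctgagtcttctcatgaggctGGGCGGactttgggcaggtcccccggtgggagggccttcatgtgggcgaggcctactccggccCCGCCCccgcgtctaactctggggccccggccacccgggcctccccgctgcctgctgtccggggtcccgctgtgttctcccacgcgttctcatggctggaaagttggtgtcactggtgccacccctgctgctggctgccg
The Adora2b window (chr10:47439462-47439761, plus strand) held 4 matches and the Entpd2 window (chr3:28611566-28611865, plus strand) held 2. GC boxes stood in 33.1% of the 33469 rat promoters of the same length and in 6 of the 9 members with an entry, which also included Adk (4 matches), Nt5e and Ada (3 each) and Slc29a1 (2). Adora1, Adora3 and Entpd1 had 0 matches, so members with and without these letters were among those called lower. The letters ACGTG and TGACG, searched on both strands, were in none of the 9 windows, against 19.3% and 21.2% of all promoters, GCGTG was in 4 of 9 against 29.7%, and CCAAT was in 3 of 9 against 37.5%. TGACG and ACGTG can overlap each other. Such matches describe the windows only.

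Adora1 (ENSRNOG00000003442), the main inhibitory receptor, was at 70.17, 63.36 and 50.76 TPM in JA, at 68.62, 61.43 and 65.01 TPM in SNI and at 50.37, 50.14 and 52.58 TPM in PLM. Each PLM sample was below each SNI sample, and JA replicate 3 was at the PLM level. Against SNI it fell by 0.34 on the log2 scale (SE 0.06, limma adjusted p = 0.0262) as deposited, and after centring the difference was -0.10 (SE 0.06, adjusted p = 0.476). Its call was kept without SNI replicate 2 (adjusted p = 0.0370) and was lost without any 1 of the other 5 samples (0.0560 to 0.1001).

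Adora2a (ENSRNOG00000001302), the other stimulatory receptor, was at 2.93, 5.30 and 2.89 TPM in JA, 3.60, 4.02 and 4.60 TPM in SNI and 1.95, 3.82 and 4.09 TPM in PLM. The 3 groups overlapped, and PLM differed from SNI by -0.28 on the log2 scale (95% interval -0.82 to 0.26, limma adjusted p = 0.385). This value rested on PLM replicate 1, being -0.03 without it, -0.42 without PLM replicate 3 and -0.03 after centring. Adora3 (ENSRNOG00000015788), the second inhibitory receptor, was near 1 TPM throughout, at 0.99, 1.47 and 1.16 TPM in JA, 0.79, 0.83 and 0.85 TPM in SNI and 0.99, 0.77 and 0.60 TPM in PLM. The SNI samples lay within the PLM range. Fitted over all loci, low ones included, PLM differed from SNI by -0.03 on the log2 scale (95% interval -0.28 to 0.21, limma adjusted p = 0.844).

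Genes were also compared within each sample. A share of the summed TPM does not move with a scaling shared by all genes, while a log2 ratio of (TPM + 1) can move with it for genes of low level. The JA samples summed to 79.72, 73.64 and 57.49 TPM over the 4 receptors, the SNI samples to 79.23, 72.36 and 75.44 TPM and the PLM samples to 55.67, 56.25 and 59.35 TPM. Of this sum Adora2b took 7.06%, 4.77% and 4.66% in JA, 7.85%, 8.40% and 6.60% in SNI and 4.24%, 2.70% and 3.50% in PLM. The PLM shares were below all JA and all SNI shares, and PLM averaged 3.48% ± 0.769, SNI 7.62% ± 0.923 and JA 5.50% ± 1.36 (SD, n = 3). The two-sided exact permutation p was 0.10 in both comparisons, the smallest that 3 against 3 samples allow. On the log2 scale the ratio of Adora2b to Adora1 averaged -3.69 ± 0.231 (JA), -3.29 ± 0.163 (SNI) and -4.13 ± 0.205 (PLM). PLM was lower than SNI by a difference of -0.84 and lower than JA by a difference of -0.44, again without overlap (exact permutation p = 0.10 for each). The ratio of Adora2b to Adora2a overlapped between the groups in every comparison (exact permutation p = 0.20 for PLM versus SNI). The exact permutation p-values of the 27 ratio tests, 9 measures in 3 comparisons, were not below 0.10 in any, and adjusted over the 27 the smallest was 0.34.

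**Figure D2:**
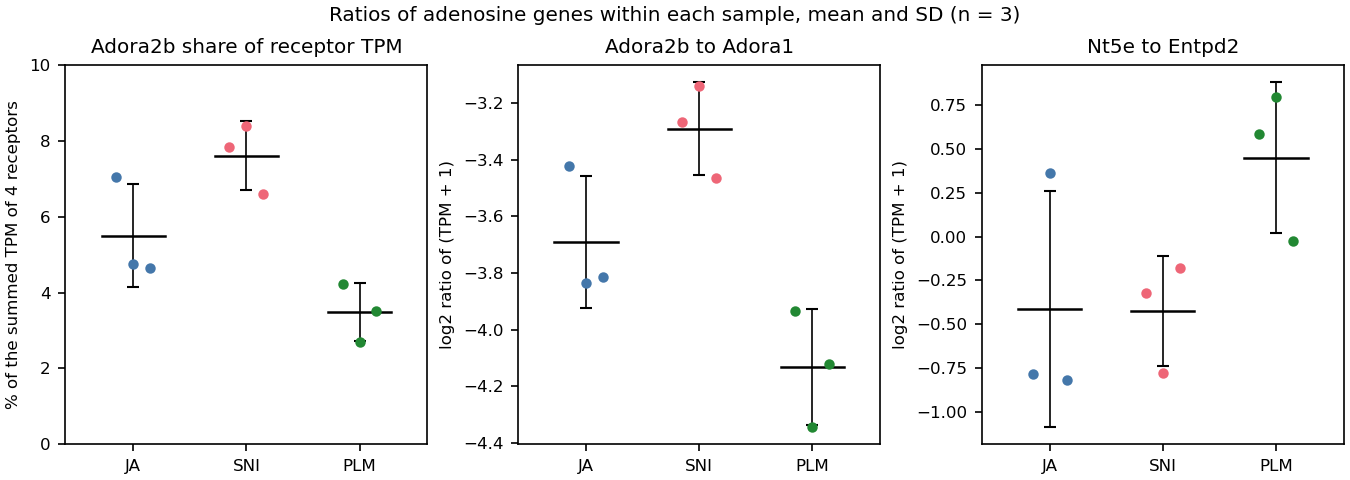
Ratios of adenosine genes within each sample (points, 3 per group) with the group mean (line) and SD (error bar): the share of Adora2b in the summed TPM of the 4 receptors in %, and the log2 ratios of (TPM + 1) of Adora2b to Adora1 and of Nt5e to Entpd2. The Adora2b share was 2.70% to 4.24% in PLM and 6.60% to 8.40% in SNI, and the Nt5e to Entpd2 ratio was higher in every PLM sample than in every SNI sample.

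The ecto-enzymes act in sequence, Entpd1 removing phosphates from ATP and ADP, Entpd2 acting mainly on ATP, and Nt5e making adenosine from AMP. Entpd2 (ENSRNOG00000013102) was at 10.13, 5.29 and 9.82 TPM in JA, at 8.32, 13.79 and 7.76 TPM in SNI and at 3.36, 2.41 and 4.83 TPM in PLM. The PLM samples were below all samples of the other groups, and SNI replicate 2 was the highest. Against SNI it fell by 1.27 on the log2 scale (SE 0.27, 95% interval -1.91 to -0.62, limma adjusted p = 0.0343), and after centring it was -1.02 (SE 0.26, unadjusted p = 0.00756, adjusted p = 0.147). The Entpd2 call was kept without PLM replicate 3 (adjusted p = 0.0474) and was lost without any 1 of the other 5 samples (0.0528 to 0.112), with log2 fold changes of -1.47 to -1.03 over these 6 fits.

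Nt5e (ENSRNOG00000011071) was at 5.45, 7.10 and 5.14 TPM in JA, at 6.47, 7.63 and 6.74 TPM in SNI and at 5.54, 4.93 and 4.72 TPM in PLM. Its PLM and SNI samples did not overlap, and the log2 fold change was -0.39 (SE 0.10, limma adjusted p = 0.0485), the called member nearest the threshold. After centring it was -0.14 (SE 0.11, adjusted p = 0.580), and the call was lost without any 1 of the 6 samples (adjusted p 0.0882 to 0.133). The log2 ratio of Nt5e to Entpd2 was 0.45 ± 0.429 in PLM and -0.43 ± 0.313 in SNI (SD, n = 3), without overlap (exact permutation p = 0.10). In JA it was -0.79, 0.36 and -0.82, with replicate 2 inside the PLM range.

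Entpd1 (ENSRNOG00000014574), which in nervous tissue is found on microglia and vessels, was at 5.61, 8.77 and 5.45 TPM in JA, at 6.25, 6.03 and 4.52 TPM in SNI and at 1.83, 6.98 and 7.19 TPM in PLM. PLM replicate 1 was far below the other PLM samples, which were above all SNI samples. The log2 difference of PLM from SNI was -0.20 (95% interval -1.20 to 0.80, limma adjusted p = 0.740) and turned to 0.30 without PLM replicate 1 (adjusted p = 0.255). The summed TPM of 12 microglia markers was 480.66 to 528.58 in SNI and 481.09 to 554.34 in PLM. Of the 11 tested, 4 were below 0 as deposited (median log2 fold change 0.04) and 1 was called, as lower. After centring, 1 of 11 was below 0 (median 0.29) and 0 were called. Of all loci, 85.0% were below 0 as deposited and 42.4% after centring.

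Of the genes that remove adenosine, Adk (ENSRNOG00000012325), which phosphorylates it to AMP, was at 65.99, 61.00 and 58.81 TPM in JA, at 69.95, 66.02 and 62.90 TPM in SNI and at 49.99, 53.41 and 54.08 TPM in PLM. Every PLM sample was below every other sample. Against SNI it fell by 0.33 on the log2 scale (SE 0.07, limma adjusted p = 0.0303), and after centring it was -0.08 (SE 0.05, adjusted p = 0.474). The call was lost without any 1 of the 6 samples (adjusted p 0.0523 to 0.109), with log2 fold changes of -0.37 to -0.29.

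Ada (ENSRNOG00000010265), which deaminates adenosine to inosine, was at 2.09, 1.65 and 1.17 TPM in JA, at 2.15, 1.68 and 1.23 TPM in SNI and at 0.88, 0.91 and 1.00 TPM in PLM. The PLM samples were the 3 lowest, but the SNI samples spread widely, and the log2 fold change of -0.46 (95% interval -0.89 to -0.04) did not pass the adjusted threshold (limma adjusted p = 0.113). With a pseudocount of 0.1 TPM in place of 1 it was -0.76 (adjusted p = 0.111). With the pseudocount of 1 TPM, the log2 ratio of Adk to Ada overlapped between the groups (4.79 ± 0.0362 in PLM and 4.66 ± 0.174 in SNI, n = 3, exact permutation p = 0.40). This overlap depended on the pseudocount, Ada being near 1 TPM. Without a pseudocount, the ratio of their TPM was higher in every PLM sample than in every SNI or JA sample.

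Slc29a1 (ENSRNOG00000019752), the equilibrative carrier that lets adenosine cross the cell membrane in either direction, was at 4.89, 4.47 and 3.97 TPM in JA, at 5.20, 3.91 and 4.82 TPM in SNI and at 2.88, 3.07 and 3.45 TPM in PLM. The PLM samples lay below both other groups. The log2 difference of PLM from SNI was -0.44 (95% interval -0.74 to -0.15, limma adjusted p = 0.0591), and after centring it was -0.20 (adjusted p = 0.421). Leaving out 1 sample gave an adjusted p of 0.0497 without SNI replicate 2 and of 0.0847 to 0.170 without any 1 of the other 5.

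**Figure D3:**
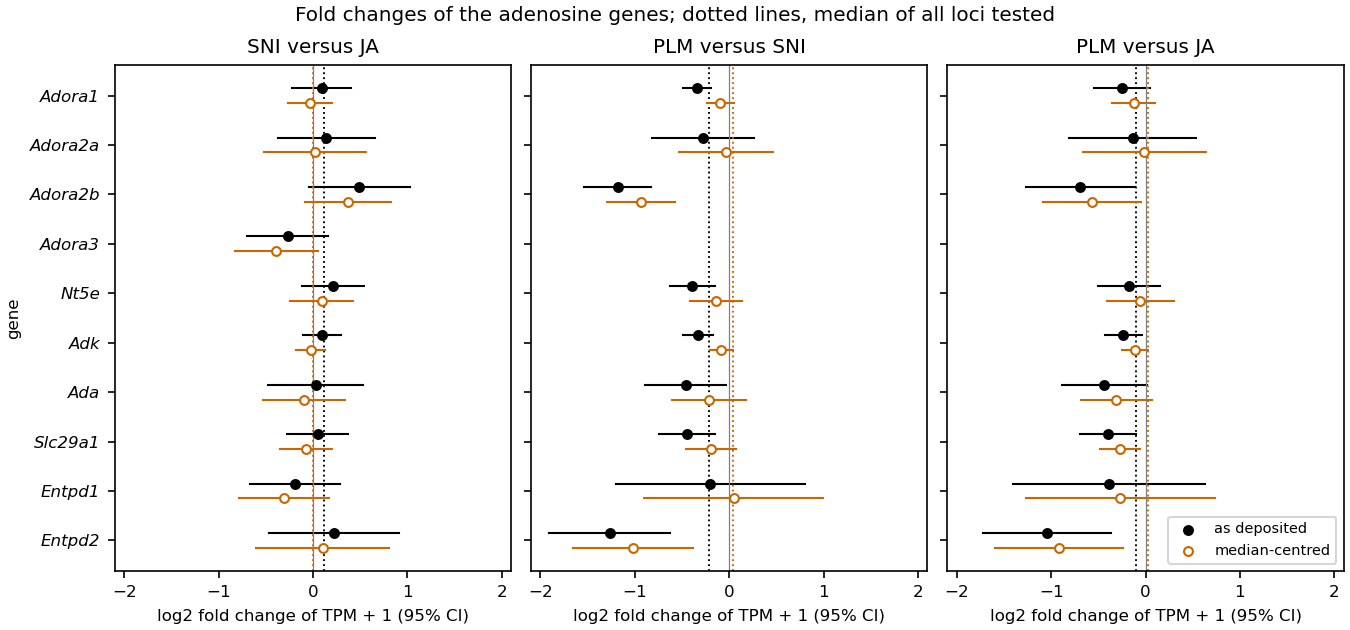
Log2 fold change of TPM + 1 with its 95% interval (limma) for each adenosine gene in the 3 comparisons, as deposited (filled black) and after centring each sample on its median (open orange). Dotted lines give the median of all loci tested under each scaling. In PLM versus SNI, the whole intervals of Adora2b and Entpd2 lay left of the median of all loci under both scalings, while the centred intervals of the other 7 members included 0.

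The summed TPM of the astrocyte markers was also lower in PLM than in SNI. JA replicate 3 was at the PLM level of these markers. Of the members called, its Adora1 (50.76 TPM) and Nt5e (5.14 TPM) lay inside the PLM range. Its Adora2b (2.68 TPM), Entpd2 (9.82 TPM) and Adk (58.81 TPM) lay above every PLM sample. Of the 15 astrocyte markers, 14 were called lower in PLM versus SNI as deposited (13.6% of all loci) and 10 after centring (0.685%). Their median log2 fold change was -1.42 as deposited, and none was at 0 in all samples. In bulk tissue, fewer astrocytes and less of these transcripts per astrocyte cannot be told apart. Per 1000 TPM of the summed astrocyte markers, the JA samples had 1.31, 1.05 and 1.28 TPM of Adora2b, the SNI samples 1.49, 1.52 and 1.33 TPM and the PLM samples 1.11, 0.799 and 1.22 TPM. The PLM values were below all SNI values and overlapped those of JA (means 1.04 ± 0.217, 1.45 ± 0.101 and 1.21 ± 0.143 in PLM, SNI and JA, n = 3, exact permutation p = 0.10 for PLM versus SNI). This scale was chosen after seeing the data. As deposited, Adora2b had a log2 fold change of -1.18, a smaller fall than the marker median of -1.42. Entpd2 per 1000 TPM of astrocyte markers overlapped between PLM (1.89 ± 0.823) and SNI (2.51 ± 0.816, n = 3, exact permutation p = 0.50). In the JA samples it was 2.36, 1.58 and 4.68 TPM. For Adora1 and Adk this scale follows the fall in the markers, whose sum averaged 3967.7 TPM in SNI and 1911.8 TPM in PLM, and their values on it (26.9 ± 3.54 and 27.7 ± 4.04 in PLM, 16.4 ± 1.03 and 16.7 ± 0.179 in SNI) are given as a description, since the TPM of both genes fell. The smallest p adjusted over the 12 tests computed on this scale was 0.30. The summed blood cell markers also differed, at 4147.4 to 7300.8 TPM in SNI and 8007.1 to 11239 TPM in PLM, with 0 of 6 called by limma. The summed oligodendrocyte markers were 46459 to 48691 TPM in SNI and 50197 to 51263 TPM in PLM, with 6 of 10 below 0 as deposited, 0 of 10 after centring and none called. Of 7 markers of meninges and fibroblasts, 7 had a log2 fold change below 0 under both scalings and 1 was called lower as deposited, and their sum was 77.55 to 218.47 TPM in SNI and 51.94 to 122.72 TPM in PLM. Of 8 Schwann cell markers, 8 were below 0 as deposited and 6 after centring with none called. Their sum ranged from 560.2 to 8348 TPM within JA, from 1044.1 to 4969.4 TPM within SNI and from 625.89 to 3764.9 TPM within PLM. Of all loci, 85.0% were below 0 as deposited and 42.4% after centring. Of 12 neuron markers, 11 were below 0 as deposited (median log2 fold change -0.24) and 5 after centring (0.01) with none called. Their sum was 2051.2 to 2500.4 TPM in SNI and 1932.3 to 2088.2 TPM in PLM. Of 9 endothelial markers, 3 were below 0 as deposited and 0 after centring with none called. Their sum was 371.9 to 405.58 TPM in SNI and 402.6 to 471.78 TPM in PLM. The part of these other cell types, the astrocytes, the oligodendrocytes, the blood cells or the mitochondrial share in the results for the adenosine genes was not tested.

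**Figure D4:**
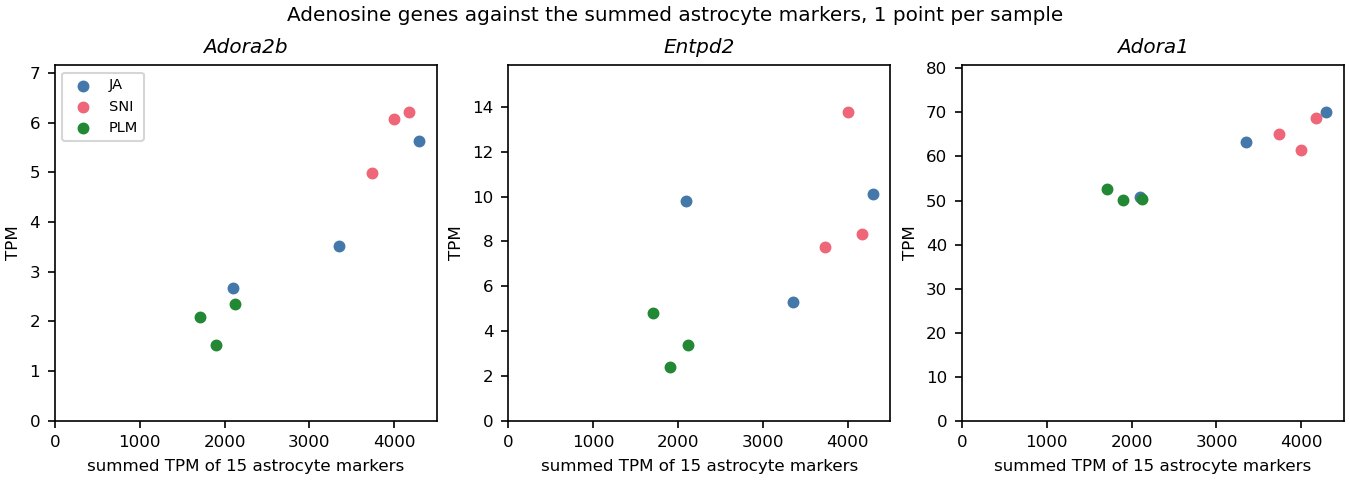
TPM of Adora2b, Entpd2 and Adora1 against the summed TPM of 15 astrocyte markers, 1 point per sample, both axes from 0. The PLM samples and JA replicate 3 sat at 1710.3 to 2121.9 TPM of markers, where Adora2b was at 1.52 to 2.68 TPM, and the SNI samples sat at 3734.2 to 4169.2, where Adora2b was at 4.98 to 6.22 TPM.

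The loci whose pattern over the 9 samples was most like that of Adora2b were sought by the root mean square difference of log2(TPM + 1), each gene centred on its own mean, among 13952 named loci averaging 1 TPM or more. They were Mras (0.0619), Grin2c (0.101), Slc1a3 (0.111), Slc41a1 (0.116) and Cmbl (0.122), where the median over all loci was 0.481. Mras, a small GTPase of the Ras family, averaged 40.6 ± 13.4 TPM in JA, 52.9 ± 4.62 TPM in SNI and, in PLM, 24.5 ± 2.91 TPM (SD, n = 3). Grin2c, an NMDA receptor subunit, averaged 5.66 ± 2.02, 7.72 ± 1.32 and 2.80 ± 0.320 TPM in the same order. Slc1a3, an astrocyte glutamate transporter, is 1 of the 15 astrocyte markers. All of these points share the same 9 libraries.

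The comparison of SNI with JA asks what the injury alone changed at this level of the cord, and no member was called. limma called 0% of 15557 loci lower and 0 higher, although 1104 loci had an unadjusted p under 0.05, 6.11% of loci being higher and 0.99% lower by that rule. After centring 1.7% were higher and 3.13% lower at an unadjusted p under 0.05. None of the 10 members had an unadjusted p under 0.05. As deposited, Adora2b had the largest estimate, a log2 fold change of 0.49 (95% interval -0.05 to 1.03, unadjusted p = 0.0672, adjusted p = 0.614), which was 0.37 after centring, 0.30 without JA replicate 3 and 0.73 without JA replicate 1. Without JA replicate 3 the other members tested had log2 fold changes of -0.29 (Entpd1) to 0.35 (Entpd2). The astrocyte markers had a median log2 fold change of 0.47 here, with 0 of 15 below 0 and 0 called, and after centring 0.35 with 2 of 15 below 0. Of all loci, 23.6% were below 0 as deposited and 51.4% after centring. Of the 12 neuron markers 0 were below 0 under either scaling (medians 0.31 and 0.19). The 9 of 9 endothelial markers under both scalings and 9 of 10 oligodendrocyte markers, 10 of 10 after centring, were below 0, with none of these called. The part of these cell types in the values of the members was not tested. Per 1000 TPM of the astrocyte markers, every SNI sample was above every JA sample for Adora2b (exact permutation p = 0.10). Adora3 was the 1 member of 10 whose groups did not overlap, with all SNI samples lower (log2 fold change -0.27, 95% interval -0.70 to 0.16, adjusted p = 0.627; with a pseudocount of 0.1 TPM -0.49, adjusted p = 0.632). Such separation was seen in 1.66% of loci in this direction and in 12.1% in the other as deposited, and in 6.87% and 4% after centring, where Adora3 was again the 1 member. Adora3 reached the mean of 1 TPM in this comparison only through JA, its higher group, so its separation is given as a description. After centring its log2 fold change was -0.39 (limma adjusted p = 0.889), the largest of the members in absolute value under that scaling. The Adora3 share of receptor TPM was 1.75% ± 0.442 in JA and 1.09% ± 0.0813 in SNI (SD, n = 3, exact permutation p = 0.10), a difference of -0.66 percentage points that was -0.53 without JA replicate 3. The other 8 members had log2 fold changes of -0.19 (Entpd1) to 0.22 (Entpd2).

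The comparison of PLM with JA sets the drug-treated injured rats against the sham-operated rats, and no member was called. limma called 2 of 15349 loci lower (0.013%) and 1 higher, and 0 of the 9 members tested. At an unadjusted p under 0.05 were 4 members, all lower, as were 10.5% of loci, and after centring 3 members were lower (Adora2b, Entpd2 and Slc29a1) against 4.72% of loci lower and 5.26% higher. The 4 were Entpd2, with a log2 fold change of -1.04 (SE 0.28, adjusted p = 0.342), Adora2b with -0.69 (SE 0.24, adjusted p = 0.386), Slc29a1 with -0.40 (SE 0.12, adjusted p = 0.368) and Adk with -0.23 (SE 0.08, adjusted p = 0.380). After centring they were at -0.92, -0.57, -0.27 and -0.11 in the same order (adjusted p 0.488 to 0.555). In 5 of 9 members (these 4 and Ada) every PLM sample lay below every JA sample, as deposited and after centring, as in 15.7% and 6.93% of loci. The median log2 fold change was -0.39 over the 9 members and -0.10 over all loci, and after centring -0.27 and 0.03. Ada reached the mean of 1 TPM only through JA, and without it 4 of 8 members did not overlap, with a median of -0.32 as deposited and -0.20 after centring. Adora1, Adora2a, Nt5e and Entpd1 overlapped between PLM and JA, and Adora2a and Entpd1 turned to 0.11 each without PLM replicate 1. Of the 15 astrocyte markers, 15 had a log2 fold change below 0 here, with medians of -0.93 as deposited and -0.80 after centring. Of all loci, 71.2% were below 0 as deposited and 43.7% after centring. Of 7 markers of meninges and fibroblasts, 7 and after centring 6 were below 0 (medians -0.69 and -0.57). Blood cell markers had 0 of 6 below 0 under both scalings (0.52 and 0.64). Neuron markers had 3 of 12 and after centring 0 below 0 (0.15 and 0.28). None of these markers was called by limma, and their part in these values was not tested. Without JA replicate 3, the sample at the PLM level of astrocyte markers, 21 loci were called lower and still 0 members. The log2 fold changes were then -0.88 for Adora2b (adjusted p = 0.146), -0.92 for Entpd2 (0.222), -0.46 for Slc29a1 (0.156), -0.27 for Adk (0.187), -0.57 for Ada (0.184) and -0.38 for Adora1 (0.126). Without JA replicate 1 the differences were smaller, at -0.46 for Adora2b (adjusted p = 0.487) and -0.15 for Adora1 (0.650, against -0.25 with all samples). Leaving out a PLM sample or JA replicate 2 gave -0.78 to -0.57 for Adora2b. The difference in the Adora2b share of receptor TPM was -2.43 percentage points without JA replicate 3 and -1.23 without JA replicate 1, and that in the log2 ratio of Adora2b to Adora1 was -0.50 and -0.31. This comparison shares its PLM samples with the comparison against SNI and its JA samples with the comparison of injury, so the 3 sets of values are not independent.

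Other genes of adenosine and cAMP handling were listed from general knowledge as 5 groups, with earlier results of these data known. Of these, 70 loci were in the table and 61 were tested in PLM versus SNI. As deposited 18 were called lower and 0 higher, with a median log2 fold change of -0.31, where 13.6% of all loci were called lower with a median of -0.21. After centring 2 were called lower and 0 higher, with a median of -0.06, where 0.685% of all loci were called lower with a median of 0.04. The counts of each group below stand against the same shares of all loci, and with so few genes a group they are a description. In SNI versus JA and in PLM versus JA limma called 0 of these genes under either scaling. At an unadjusted p under 0.05, SNI versus JA had 3 of 61 higher and 0 lower as deposited, where 6.11% of loci were higher, and 0 in either direction after centring, against 1.7% of loci higher and 3.13% lower. PLM versus JA had 7 of 60 lower and 0 higher as deposited, where 10.5% of loci were lower, and 2 lower and 2 higher after centring, against 4.72% and 5.26% of loci.

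In the group of deamination, purine salvage and the homocysteine cycle, 4 of 10 were called lower as deposited (13.6% of all loci) and 2 of 10 after centring (0.685%). Both genes called under each scaling belong here. Pnp, which splits inosine and guanosine, was at 126.35, 108.62 and 79.28 TPM in JA, 123.78, 118.13 and 113.17 TPM in SNI and 68.78, 69.75 and 62.83 TPM in PLM. Against SNI it differed by -0.81 on the log2 scale (SE 0.07, limma adjusted p = 0.00477), and by -0.56 after centring (adjusted p = 0.0443). Ahcyl1, a relative of the enzyme that frees adenosine from S-adenosylhomocysteine, was at 131.08, 108.44 and 80.88 TPM in JA, 147.61, 138.70 and 129.20 TPM in SNI and 83.07, 82.69 and 81.70 TPM in PLM. Its log2 fold change was -0.74 (SE 0.06, limma adjusted p = 0.00497) and -0.49 after centring (adjusted p = 0.0402). In both genes JA replicate 3 was below the other JA samples and below all SNI samples. The other 2 called were Ampd3 and Ahcyl2, named here after their values were seen.

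Among the genes of extracellular nucleotide hydrolysis, 2 of 6 were called lower as deposited (13.6% of all loci) and 0 after centring (0.685%). Cd38, an ectoenzyme that consumes NAD, was at 26.06, 17.79 and 7.74 TPM in JA, 31.57, 35.98 and 19.71 TPM in SNI and 8.68, 6.97 and 5.78 TPM in PLM. Its log2 fold change of -1.86 (SE 0.24, limma adjusted p = 0.0116; after centring -1.61, adjusted p = 0.0569) was the most negative of the 61 genes. Alpl, the tissue-nonspecific alkaline phosphatase, had -0.42 (SE 0.08, adjusted p = 0.0276). Of the intracellular nucleotidases and adenylate kinases, 3 of 11 were called lower, among them Ak3 with -0.36 (SE 0.08, adjusted p = 0.0384) and Ak4 with -0.68 (SE 0.16, adjusted p = 0.0409), and 0 after centring. None of the 5 nucleoside transporters and ATP release channels was called, and the 2 with the smallest p, Slc29a3 and Slc29a4, had -0.28 (SE 0.08, adjusted p = 0.0702) and -0.35 (SE 0.14, adjusted p = 0.122). Of the G proteins, adenylyl cyclases and cAMP enzymes, through which the receptors act, 9 of 29 were called lower and 0 after centring. Among them were the inhibitory G protein subunit Gnai2 with -0.41 (SE 0.06, adjusted p = 0.0176) and Gnao1 with -0.42 (SE 0.08, adjusted p = 0.0280), which after centring were both at -0.17 (adjusted p = 0.199 and 0.269). Gnas, the stimulatory subunit, was listed as 2 loci, and neither was called.

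**Figure D5:**
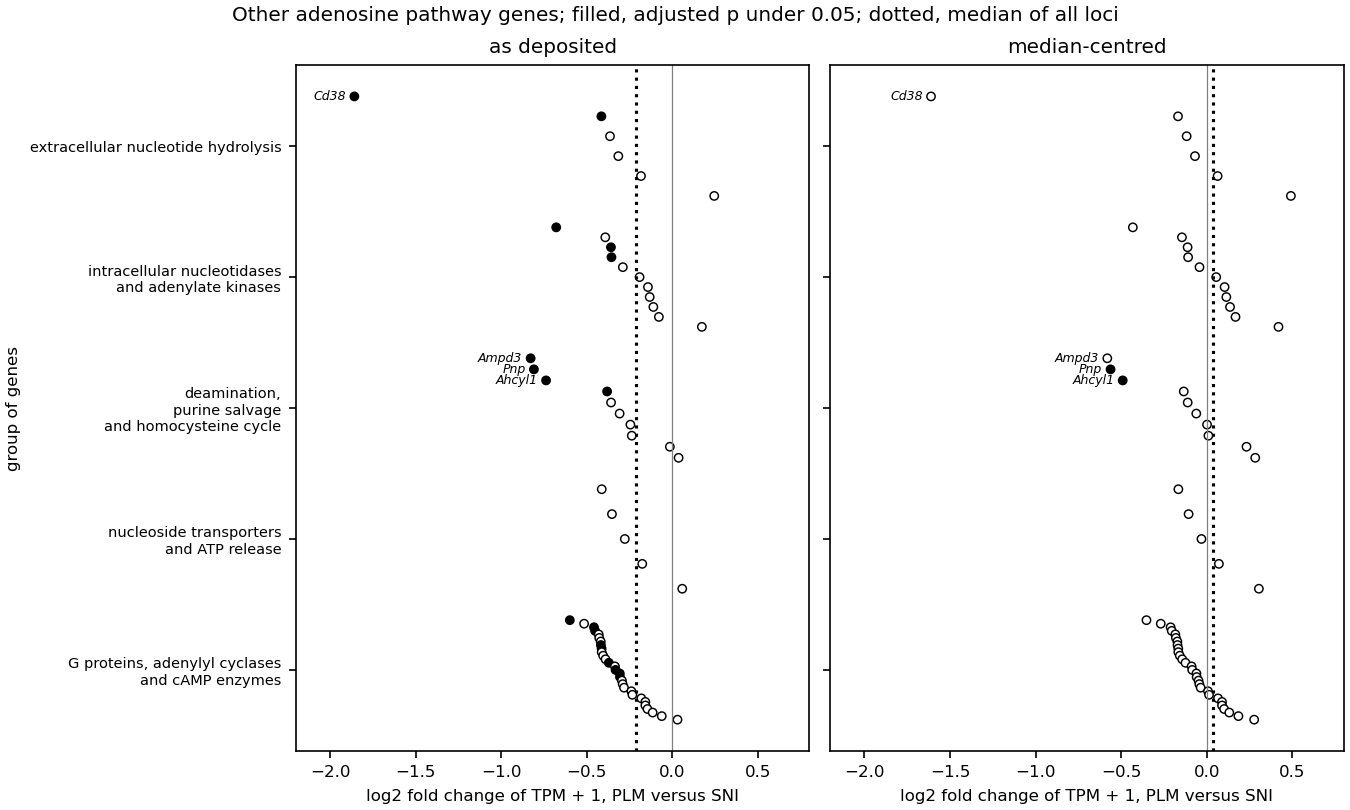
Log2 fold change of TPM + 1 in PLM versus SNI for the other 61 pathway loci tested, by group, as deposited (left) and after centring (right). Filled points had an adjusted p under 0.05, the dotted line is the median of all 15474 loci, and 18 points were filled as deposited against 2, Pnp and Ahcyl1, after centring.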

How the data were processed

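RNA-seq of 9 rat spinal cord samples was analysed. The authors prepared libraries with a TruSeq kit, removed adaptors and reads of quality under 20, aligned with HISAT2 and assembled with StringTie, and deposited TPM per locus with 2 decimals. The submitters' processing notes name fastp 0.19.5. They also name a human build although the locus IDs are those of rat, and the rat build is not given in the sources used here, so no locus coordinates are printed from the table. The deposited TPM summed to 999999.57 to 1000000.42 in each sample. Read depth is unknown, so no counting intervals are given, and the study's count-based DESeq2 test could not be used on this unit. Promoter sequences are from RefSeq (GRCr8), matched by symbol for 9 of the 10 members.

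From log2(TPM + 1), pairs of groups were fitted with limma 3.58.1 (trended empirical Bayes, R 4.3.3) over loci averaging 1 TPM or more in the 6 samples, with Benjamini-Hochberg adjustment over all of them, as deposited and median-centred. Ratios were compared with two-sided exact permutation tests. The fitting was tested on simulated data. The members and gene lists were chosen with earlier results of these data known. All 10 members are named, and of each pathway group the genes called under both scalings (at most 3), otherwise the 2 with the smallest p. The scaling of Adora2b, Entpd2, Adora1 and Adk to the summed astrocyte markers was chosen after seeing the data. Alternatives were quantile normalization, TPM without mitochondrial genes, a pseudocount of 0.1, other filters, all 9 samples in 1 fit, a replicate block, leaving out each sample and the study's thresholds.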

Additional observations from a re-analysis of the deposited data

How the results depend on the processing

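In PLM versus SNI, the members called lower numbered 0 after centring, 0 after quantile normalization, 1 without mitochondrial genes, 3 without the filter, 1 with all 9 samples in 1 fit, 2 by the study's thresholds, and 0 to 3 when 1 sample was left out (0 without SNI replicate 1, 3 without SNI replicate 2). With at least 1 TPM required in every sample they numbered 6, with 2594 loci and 21 pathway genes lower. The loci called lower numbered 106, 132, 267, 1237, 478 and 220 in the same order and 264 to 1456 when 1 sample was left out. The loci called higher numbered 20, 23, 16, 21 and 8 under the first 5 of these and 7 to 38 when 1 sample was left out, and the pathway genes called lower numbered 2, 2, 4, 9, 5 and 1, and 3 to 16. In SNI versus JA, loci called lower were 30 and higher 77 by the study's thresholds, 1 was higher without the filter, and leaving out 1 sample gave 0 to 3 lower and 0 to 6 higher. In PLM versus JA, loci called lower were 1 without the filter, 1 with all 9 samples and 101 by the study's thresholds, and higher 0 after centring, quantile normalization, without the filter and with all 9 samples, 2 with a pseudocount of 0.1 and 43 by the study's thresholds. Leaving out 1 sample there gave 1 (without PLM replicate 1) to 21 (without JA replicate 3) lower and 1 to 4 (without PLM replicate 2) higher, and the study's thresholds gave 1 member and 1 pathway gene lower.

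The replicate numbers did not pair the samples: same-numbered samples had correlations of their deviations of 0.03, -0.02 and -0.01 in PLM versus SNI, and not every sample correlated best with its own number. With the replicate block, PLM versus SNI had 0 members, 4 pathway genes and 151 loci lower and 1 locus higher, and PLM versus JA had 1 locus lower and 0 higher.

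Signs turned only for members that were not called. In PLM versus SNI, Entpd1 was at 0.046 after centring and 0.035 after quantile normalization, with -0.46 to 0.30 when 1 sample was left out, and Adora3 was at 0.036 without mitochondrial genes. In SNI versus JA, Adora1 was at -0.030 and -0.028, Adk at -0.025 and -0.030, Ada at -0.094 and -0.060 and Slc29a1 at -0.073 and -0.066 after centring and quantile normalization, and Ada and Slc29a1 were at -0.030 and -0.027 without mitochondrial genes. When 1 sample was left out, that comparison gave -0.11 to 0.15 for Ada, -0.037 to 0.19 for Adora1, -0.29 to 0.0051 for Entpd1, -0.043 to 0.37 for Entpd2 and -0.023 to 0.15 for Slc29a1. PLM versus JA then gave -0.28 to 0.11 for Adora2a and -0.65 to 0.11 for Entpd1, both positive without PLM replicate 1. With a pseudocount of 0.1, the log2 ratio of Adora2b to Adora1 differed by -1.16 and that of Adk to Ada by 0.43 in PLM versus SNI, and Adk to Ada by 0.48 in PLM versus JA. The cause of these changes was not tested. The read depth is unknown, so what it limits was not measured.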
